A study of Mus musculus with 21 samples.

Results

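The genes described here were Trp53, Rb1, Arid1a, Arid2, Tsc1, Tsc2 and Bap1, 7 tumour suppressor genes that are recurrently mutated or deleted in liver cancer or in other epithelial tumours. They were chosen by name from 22832 gene names with probes on chromosomes 1 to 19, by a rule that uses no measured value, although earlier results of these data were known when the list was drawn up. Each tumour was examined by array comparative genomic hybridization (aCGH), in which tumour DNA and reference DNA carry different dyes and compete for the same probes, so that each probe gives a ratio of tumour over reference. The tumours came from C57BL/6 mice fed CD-HFD, a choline-deficient high-fat diet that causes steatohepatitis (NASH) and liver cancer. The control group of 9 tumours had received CD-HFD for 12 months only, and the treated group of 12 tumours had received CD-HFD for 12 months and then anti-PD1, an antibody that blocks the T cell checkpoint receptor PD1, for 8 weeks. The labels name no engineered allele. DNA was extracted from fixed, paraffin-embedded sections, the reference on every array was a pool that the labels call liver tails, and the share of tumour cells in a section is not given in the sources used here. Lesions with the same leading number in their name were read as tumours of 1 mouse, which gave 7 mice in each group. The series' own description counts each tumour as a mouse, so every n of 7 or 14 mice below rests on that reading.

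Tumour suppressors restrain growth in different ways. Trp53 encodes p53, a transcription factor that arrests or kills cells with damaged DNA, and Rb1 encodes the retinoblastoma protein, which holds E2F factors inactive and so blocks entry into S phase. Arid1a and Arid2 encode DNA-binding subunits of SWI/SNF complexes, which move nucleosomes. Tsc1 and Tsc2 encode hamartin and tuberin, which together switch off Rheb and thereby mTORC1, and Bap1 encodes a deubiquitinase that removes ubiquitin from histone H2A. In human liver cancer such genes are lost by point mutation, by short deletions or with a whole chromosome arm, and a copy-number array detects only the last 2 of these kinds of loss.

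For each gene the locus was taken as every probe within 500 kb of a probe named for the gene, since the genes themselves carried only 2 (Bap1) to 24 (Rb1) named probes. All 7 loci were among the 22646 gene loci with at least 5 probes on every array. A locus held 24 to 92 usable probes, and its value in a tumour was the mean log2 ratio of these probes after centring each array on its median, so that 0 stands for the middle of the array rather than for 2 copies. On this scale the loss of 1 of 2 copies in every cell would lower a ratio by 1.0. Noise per probe was 0.41 to 0.68 on the log2 scale, and 65.0% or more of the spots of each array were well above background in the tumour channel. The lowest share, 65.0%, belonged to lesion 1 of mouse 608 (anti-PD1), the next lowest being 82.1%. The limma counts between the groups and the segment counts are also given without this tumour, whereas ranges and exact p-values include it. The tumours lay on 3 slides of 2 array designs, slide 1 carrying one design and slides 2 and 3 the other, and all positions in the files are those of the mm9 build.

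The loci differed among themselves far more than the groups did. Rb1 and Arid2 lay above 0 in 21 of 21 tumours, Trp53 and Arid1a below 0 in 20 of 21, Tsc1 and Tsc2 below 0 in 18 of 21, and Bap1 was spread around 0 with 13 tumours below it. No tumour of either group came near a ratio of -1.0 at any of the 7 loci, the lowest value being -0.48 at Arid1a in lesion 1 of mouse 2064 (CD-HFD).

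**Figure D1:**
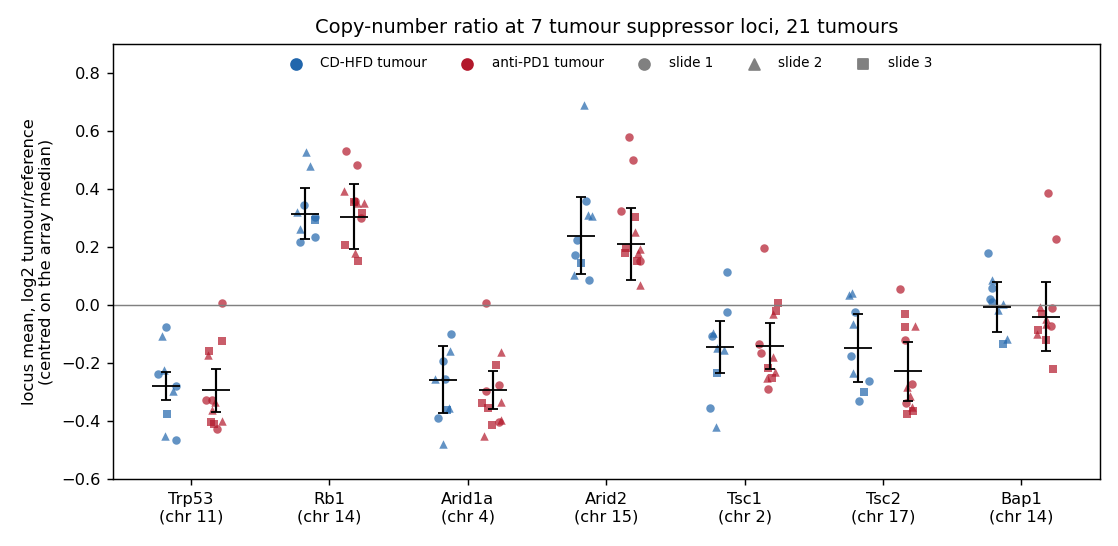
Each point is 1 tumour, placed by the mean log2 ratio of tumour over reference at a locus, with blue for CD-HFD and red for anti-PD1 and the marker shape for the slide. Horizontal bars and whiskers give the mean and SD of 7 mice per group, and the groups overlap at all 7 loci.

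Trp53 lies on chromosome 11, with its named probes between positions 69395366 and 69404744. Its locus ranged from -0.46 to -0.074 (median -0.28) in the 9 CD-HFD tumours and from -0.43 to 0.006 (median -0.33) in the 12 anti-PD1 tumours. Lesion 1 of mouse 608 was the single tumour above 0, and the remaining 20 overlapped between the groups. The mean over mice was -0.28 ± 0.048 (SD, n = 7) on CD-HFD and -0.29 ± 0.074 (SD, n = 7) with anti-PD1. Among the 5 nearest named genes, which share the window and therefore the value, are Wrap53, a gene that overlaps Trp53 head to head and encodes a protein of Cajal bodies, Atp1b2 and Shbg, the others being AK084182 and a transcript without a symbol. Only 3 probes were named for Trp53 itself, all of them in introns of the GENCODE annotation of GRCm38. The pair present on both array designs is shown because these neighbouring probes of 1 gene gave very different ratios, at chr11:69397121-69397180 and chr11:69404685-69404744 of mm9 (chr11:69583619-69583678 and chr11:69591183-69591242 of GRCm38, plus strand). Capitals mark G and C here and in the probes printed for the other genes, and the printed probes were picked after their values had been seen, as the lowest and the highest among probes on both designs that lay wholly within an intron or wholly within coding sequence of RefSeq. Bap1 had no such probe on both designs, and its intron probe on the design of slide 1 is printed instead.
Trp53 probe 1: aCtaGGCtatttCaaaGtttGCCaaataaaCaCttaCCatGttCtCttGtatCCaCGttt
Trp53 probe 2: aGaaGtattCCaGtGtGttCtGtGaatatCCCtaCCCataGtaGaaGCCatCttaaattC
Trp53 probe 1 had a mean of 0.11 ± 0.14 (SD, n = 7) in the anti-PD1 mice and 0.072 ± 0.14 (SD, n = 7) in the CD-HFD mice. Trp53 probe 2, in the same gene, had -1.07 ± 0.14 (SD, n = 7) and -0.97 ± 0.073 (SD, n = 7). The distance between these probes was thus many times their difference between groups, and it was present in both groups.

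Rb1 lies on chromosome 14, with named probes between 73595475 and 73721995. By the mean over mice, though not in every single tumour, its locus was the highest of the 7. It ranged from 0.22 to 0.53 (median 0.305) in CD-HFD tumours and from 0.15 to 0.53 (median 0.35) in anti-PD1 tumours. Every tumour lay above 0 and the groups covered nearly the same range. The mean over mice was 0.31 ± 0.088 (SD, n = 7) on CD-HFD and 0.30 ± 0.11 (SD, n = 7) with anti-PD1. The nearest named genes were Rcbtb2, Itm2b and Cysltr2, together with AK037626 and a transcript without a symbol. Of the 24 probes named for Rb1, 18 had a mean above 0 and 6 below, from -0.53 to 1.82. The highest and the lowest such probe, both in introns and the only such probes of Rb1, lie at chr14:73638144-73638203 and chr14:73639738-73639797 of mm9 (chr14:73238337-73238396 and chr14:73239931-73239990 of GRCm38, plus strand).
Rb1 probe 1: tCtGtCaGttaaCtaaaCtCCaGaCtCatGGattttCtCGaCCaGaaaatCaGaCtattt
Rb1 probe 2: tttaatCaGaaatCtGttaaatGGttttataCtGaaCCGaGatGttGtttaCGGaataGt
Rb1 probe 1 had a mean of 1.17 ± 0.39 (SD, n = 7) in anti-PD1 mice and 1.14 ± 0.485 (SD, n = 7) in CD-HFD mice. Rb1 probe 2, the richest in A and T of the printed probes, had 0.90 ± 0.26 (SD, n = 7) and 0.91 ± 0.21 (SD, n = 7). Both probes were therefore far above the mean of the locus around them, and close to each other in the 2 groups.

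Arid1a lies on chromosome 4, with named probes between 133238540 and 133305848. Its product is the defining subunit of the canonical BAF form of SWI/SNF. The locus ranged from -0.48 to -0.098 (median -0.25) in CD-HFD tumours and from -0.45 to 0.008 (median -0.34) in anti-PD1 tumours. The median was thus lower with anti-PD1, but the ranges overlapped over nearly their whole length. The upper end of the anti-PD1 range was lesion 1 of mouse 608, and the next highest anti-PD1 tumour was that of mouse 2116 (-0.16). The mean over mice was -0.26 ± 0.12 (SD, n = 7) on CD-HFD and -0.29 ± 0.066 (SD, n = 7) with anti-PD1. Pigv, Zdhhc18, Sfn and Gpn2, with a transcript without a symbol, were its nearest named genes. Of 12 named probes 11 had a mean below 0. A probe at chr4:133250743-133250802 that is not wholly within coding sequence of RefSeq had the lowest mean (-1.03) and is not printed. The lowest and the highest intron probes of Arid1a on both designs, at chr4:133238540-133238599 and chr4:133305789-133305848 of mm9 (chr4:133682625-133682684 and chr4:133749874-133749933 of GRCm38, plus strand), were as follows.
Arid1a probe 1: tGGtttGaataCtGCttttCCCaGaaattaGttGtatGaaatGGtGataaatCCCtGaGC
Arid1a probe 2: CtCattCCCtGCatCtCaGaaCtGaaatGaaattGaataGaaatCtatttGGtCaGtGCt
Arid1a probe 1 gave -0.52 ± 0.23 (SD, n = 7) in anti-PD1 mice and -0.58 ± 0.18 (SD, n = 7) in CD-HFD mice. Arid1a probe 2 gave -0.28 ± 0.26 (SD, n = 7) and 0.24 ± 0.37 (SD, n = 7), the largest difference between group means among the 68 probes named for the 7 genes (-0.52). This single probe was singled out after its values were seen, it was not tested, and the difference over all 68 probes had a median of 0.001.

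Arid2 lies on chromosome 15, with named probes between 96125293 and 96235837, and its product belongs to the PBAF form of SWI/SNF. Its locus ranged from 0.088 to 0.69 (median 0.22) in CD-HFD tumours and from 0.07 to 0.58 (median 0.20) in anti-PD1 tumours. The upper ends of these ranges came from lesion 1 of mouse 2064 (CD-HFD, 0.69) and from lesions 1 and 6 of mouse 608 (anti-PD1, 0.58 and 0.50), whereas the other 18 tumours reached at most 0.36. The mean over mice was 0.24 ± 0.13 (SD, n = 7) on CD-HFD and 0.21 ± 0.12 (SD, n = 7) with anti-PD1. Its nearest named genes were Scaf11, Slc38a1, AK044630, 4833422M21Rik and a transcript without a symbol. All 13 named probes of Arid2 had a mean above 0, from 0.12 to 1.83. Its lowest and highest intron probes on both designs lie at chr15:96146922-96146981 and chr15:96191345-96191404 of mm9 (chr15:96316491-96316550 and chr15:96360914-96360973 of GRCm38, plus strand).
Arid2 probe 1: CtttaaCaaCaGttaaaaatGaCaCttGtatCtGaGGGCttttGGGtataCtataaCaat
Arid2 probe 2: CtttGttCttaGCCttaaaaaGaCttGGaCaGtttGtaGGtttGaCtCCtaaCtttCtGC
Arid2 probe 1 gave 0.25 ± 0.27 (SD, n = 7) in anti-PD1 mice and 0.43 ± 0.33 (SD, n = 7) in CD-HFD mice. Arid2 probe 2 gave 0.605 ± 0.20 (SD, n = 7) and 0.525 ± 0.20 (SD, n = 7), so that the groups were ordered one way at one probe and the other way at the other, each time within the SD.

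Tsc1 lies on chromosome 2, with named probes between 28498489 and 28543015, and Tsc2 on chromosome 17, with named probes between 24734850 and 24763796. Their products form 1 complex, the GTPase-activating complex for Rheb. At Tsc1 the CD-HFD tumours ranged from -0.42 to 0.12 (median -0.15) and the anti-PD1 tumours from -0.29 to 0.20 (median -0.17). At Tsc2 they ranged from -0.33 to 0.042 (median -0.175) and from -0.37 to 0.056 (median -0.28). Both loci were thus mostly below 0 in both groups, and lesion 1 of mouse 608 was the highest anti-PD1 tumour at each. The mean over mice at Tsc1 was -0.14 ± 0.089 (SD, n = 7) on CD-HFD and -0.14 ± 0.079 (SD, n = 7) with anti-PD1. At Tsc2 it was -0.15 ± 0.12 (SD, n = 7) and -0.23 ± 0.10 (SD, n = 7), the widest gap between the groups among the 7 loci. Tsc1 was nearest to Gfi1b, Ak8, Gtf3c5, Cel and 1700026L06Rik. Tsc2 was nearest to Pkd1, the polycystic kidney disease gene that lies tail to tail with it, and to Nthl1, Slc9a3r2, Zfp598 and Syngr3. The printed probes are 1 intron probe of Tsc1 at chr2:28498489-28498548 of mm9 (chr2:28642969-28643028 of GRCm38, plus strand) and 2 probes in coding exons of Tsc2 at chr17:24734850-24734905 and chr17:24759533-24759591 of mm9 (chr17:24597905-24597960 and chr17:24622588-24622646 of GRCm38, plus strand).
Tsc1 probe 1: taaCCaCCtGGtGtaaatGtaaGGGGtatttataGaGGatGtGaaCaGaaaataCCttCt
Tsc2 probe 1: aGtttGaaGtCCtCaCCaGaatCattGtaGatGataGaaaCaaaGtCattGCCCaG
Tsc2 probe 2: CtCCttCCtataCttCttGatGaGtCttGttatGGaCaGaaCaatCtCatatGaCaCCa
Tsc1 probe 1 had a mean of 0.80 ± 0.16 (SD, n = 7) in anti-PD1 mice and 0.74 ± 0.18 (SD, n = 7) in CD-HFD mice, far above the mean of its locus, while 5 of the 7 probes named for Tsc1 lay below 0. Tsc2 probe 1 had -0.37 ± 0.34 (SD, n = 7) and -0.35 ± 0.245 (SD, n = 7), and Tsc2 probe 2 had -0.17 ± 0.26 (SD, n = 7) and -0.32 ± 0.25 (SD, n = 7). All 7 probes named for Tsc2 had a mean below 0.

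Bap1 shares chromosome 14 with Rb1, closer to the centromere, with named probes at 32066527 to 32072366. Its locus ranged from -0.13 to 0.18 (median 0.012) in CD-HFD tumours and from -0.22 to 0.385 (median -0.057) in anti-PD1 tumours. Above 0 were 6 CD-HFD tumours and 2 anti-PD1 tumours, both of the latter being lesions of mouse 608. By slide, 6 of 8 tumours lay above 0 on slide 1, 2 of 8 on slide 2 and 0 of 5 on slide 3. Slide 3 held 4 anti-PD1 tumours and 1 CD-HFD tumour, so these counts of the groups are not separate from the slides. The mean over mice was -0.0057 ± 0.087 (SD, n = 7) on CD-HFD and -0.040 ± 0.12 (SD, n = 7) with anti-PD1. Phf7, Dnahc1, Dnah1 (the current symbol of Dnahc1), Tnnc1 and Nisch were its nearest named genes. Bap1 had 2 named probes, and the one outside a UTR, which only the design of slide 1 carries, lies in an intron at chr14:32066527-32066586 of mm9 (chr14:31253341-31253400 of GRCm38, plus strand).
Bap1 probe 1: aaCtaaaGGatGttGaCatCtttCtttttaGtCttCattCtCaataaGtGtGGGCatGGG
Bap1 probe 1 gave -0.29 ± 0.11 (SD, n = 3) in anti-PD1 mice and -0.29 ± 0.14 (SD, n = 3) in CD-HFD mice. The other named probe overlaps a UTR, is on both designs and is not printed. It gave -0.96 ± 0.3 (SD, n = 7) in anti-PD1 mice and -0.80 ± 0.28 (SD, n = 7) in CD-HFD mice. These means lay far below the mean of the locus.

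The study compared the treated with the untreated tumours, and the first comparison asked whether any of the 7 loci differed in copy number between them. None did by the tests run. limma with the mouse as a random block, two-sided and adjusted by the Benjamini-Hochberg method over all gene loci, called 0 of 22646 loci at an adjusted p of 0.05 (percent called, 0), with 163 loci at an unadjusted p under 0.05, and 0 of the 7 genes were called. Without lesion 1 of mouse 608 limma again called 0 loci, with 514 at an unadjusted p under 0.05, without the whole mouse 608 it called 0, with 930, and with the slide as a block 0, with 308. The limma difference, anti-PD1 minus CD-HFD, ran from -0.064 at Tsc2 (SE 0.062) to 0.029 at Tsc1 (SE 0.062), with an adjusted p of 0.9997 at every one of the 7. The exact permutation test over mice, two-sided, gave p = 0.19 for Tsc2, for which 5 of 7 anti-PD1 mice lay below the CD-HFD mean. For the other 6 genes the exact p was between 0.48 (Arid1a) and 0.92 (Tsc1). The smallest p that 3432 splits of 14 mice allow is 0.000583. A missed threshold does not show equal copy number, and the mice of a group spread with an SD of 0.048 to 0.13.

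Slides 1 and 2 each held 3 mice of each group, and the differences were also taken within each of them, where the smallest possible exact p is 0.1. Trp53 gave -0.026 on slide 1 and -0.028 on slide 2, and Arid1a gave -0.052 and -0.031, the same direction on both. Tsc2 gave -0.0092 and -0.19, so that the pooled difference came mainly from slide 2. Rb1 (0.11 and -0.054), Arid2 (0.13 and -0.15), Tsc1 (-0.034 and 0.019) and Bap1 (0.018 and -0.023) turned direction between the slides. The lowest exact p of these 14 values was 0.2. Slide 3 held a single CD-HFD mouse and allowed no test, and there the anti-PD1 mean was higher at Trp53 (0.10), Arid1a (0.035) and Tsc2 (0.087), the opposite direction.

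A locus can differ from the reference because its whole chromosome is gained or lost, so the distance of each locus from the mean of its own chromosome in the same tumour was examined as well. At Trp53 this distance was -0.22 ± 0.036 (SD, n = 14 mice), and the locus lay below its chromosome in 21 of 21 tumours. Rb1 lay above chromosome 14 in 21 of 21 tumours, by 0.25 ± 0.070 (SD, n = 14), and Arid2 above chromosome 15 in 21 of 21, by 0.19 ± 0.059 (SD, n = 14). Arid1a lay below chromosome 4 in 21 of 21, by -0.22 ± 0.068 (SD, n = 14). Tsc2 was below chromosome 17 in 20 of 21 tumours (-0.16 ± 0.065, SD, n = 14), Tsc1 below chromosome 2 in 19 of 21 (-0.15 ± 0.080, SD, n = 14) and Bap1 below chromosome 14 in 17 of 21 (-0.078 ± 0.081, SD, n = 14). On slide 1 the distance of Bap1 had a median of 0.007, with 4 tumours above 0 and 4 below. On slides 2 and 3, of the other design, its medians were -0.094 and -0.165, with 8 of 8 and 5 of 5 tumours below 0. By limma all 7 distances differed from 0, with adjusted p from 1.144e-13 (Rb1) to 0.001228 (Bap1). The calls at Tsc1 (-0.0075, limma adjusted p = 0.80) and Tsc2 (-0.031, limma adjusted p = 0.14) were lost with the deposited loess ratios, and that at Bap1 (-0.056, limma adjusted p = 0.13) with 250 kb flanks. Bap1 was called in the other direction with the loess ratios (0.085, limma adjusted p = 0.00023) and with the probes common to both designs (0.049, limma adjusted p = 0.026). From the probes named for Tsc1 alone, the mean distance of Tsc1 over mice lay above 0. These were 6 probes on slide 1, where tumours ranged from -0.17 to 0.29. On slides 2 and 3 they were 3 probes, and tumours ranged from -0.037 to 0.78. Sizes moved as well, the limma distance of Arid2 being 0.074 with the loess ratios against 0.20, and that of Rb1 0.57 with common probes against 0.26. For Trp53 it was -0.325 with common probes against -0.21. The share of the 7 genes called is near the background of the arrays, because 47.6% of all gene loci were called lower than their chromosome and 33.9% higher, and 5 and 2 of the 7 genes fell into these classes. No difference in distance between the groups was called at any of the 7 genes. limma called 0 of 22646 loci (296 at an unadjusted p under 0.05, 691 without lesion 1 of mouse 608 and 1097 with the slide as a block), and the exact p was lowest at Arid1a, where the anti-PD1 mice were further below the chromosome by -0.059 (p = 0.11, exact permutation test, n = 7 and 7). limma gave -0.057 at Arid1a (unadjusted p = 0.15), and -0.077 without lesion 1 of mouse 608 (unadjusted p = 0.033, adjusted p = 0.8525).

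The order of the loci by this distance was Arid1a, Trp53, Tsc2, Tsc1, Bap1, Arid2 and Rb1, from the lowest to the highest. Of the 6 pairs of neighbours 4 differed beyond their spread over mice by an exact sign-flip test, two-sided and with a smallest possible p of 0.0001221. Trp53 and Tsc2 differed by 0.055 (p = 0.0007324, exact, in this order in 12 of 14 mice), Tsc1 and Bap1 by 0.069 (p = 0.0007324, exact, 12 of 14), Bap1 and Arid2 by 0.27 (p = 0.0001221, exact, 14 of 14) and Arid2 and Rb1 by 0.064 (p = 0.006714, exact, 13 of 14). Arid1a and Trp53 (p = 0.88, exact, n = 14) and Tsc2 and Tsc1 (p = 0.51, exact, n = 14) could not be placed in order. Tsc2 and Tsc1 gained a p under 0.05 by the same test, in this order, with 2 other settings, and traded places with 2. The p-values of the order are not adjusted for the 6 pairs, and the pairs were set by sorting the same distances that were then tested. The order of Trp53 and Tsc2 was lost with 250 kb flanks (0.046) and with medians (0.022) and turned with 1000 kb flanks (-0.017), that of Bap1 and Arid2 was lost with the loess ratios (0.022), and that of Arid2 and Rb1 was lost with probes well above background (0.032) and turned with medians (-0.0064). Different probes stand at each locus, so the order is one of ratios against the reference pool and not of copies.

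The base composition of the surrounding DNA is given beside the distances. The 50 kb around the probes held more G and C than the average of the chromosome at Tsc2 (by 5.0 percentage points), Arid1a (4.8), Tsc1 (4.8), Trp53 (3.8) and Bap1 (3.1), and these are the 5 loci that lay below their chromosome. Arid2 (-0.1) and Rb1 (-1.3), at or below the average of their chromosomes, are the pair that lay above. Over all 22646 loci the same GC difference and the median distance had a Pearson r of -0.781 across loci, which share the arrays and are not independent, and the arrays were therefore also corrected for GC content, both within the probes and over the 50 kb surrounding them, which by its construction removes this relation.

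**Figure D2:**
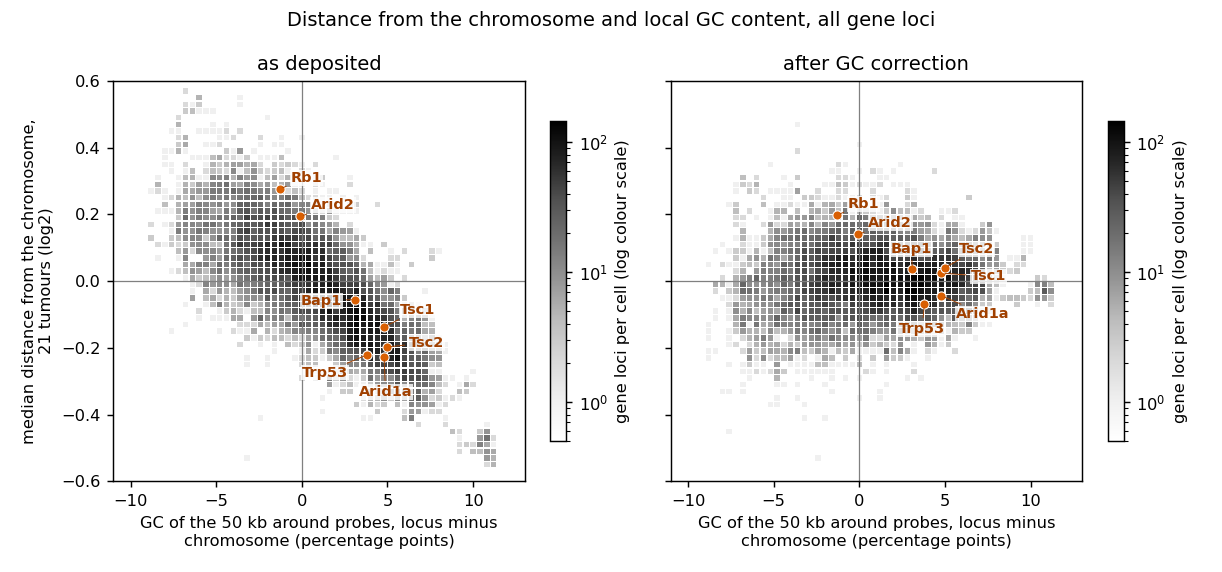
Grey cells count gene loci by the GC difference between locus and chromosome (x axis, percentage points) and by the median distance from the chromosome over 21 tumours (y axis, log2), with 11 (left) and 9 (right) loci outside the plotted range. Of the 7 genes (orange), Rb1 and Arid2 sit at the upper side of the cloud of all loci in both panels, and all 7 lie between -0.07 and 0.20 after the correction.

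After the GC correction Rb1 and Arid2 still lay above their chromosomes in 21 of 21 tumours, by 0.18 and 0.15 (limma adjusted p = 2.935e-11 and 2.706e-09). Trp53 lay below in 20 of 21 tumours and Arid1a in 19 of 21, by -0.072 and -0.049 (limma adjusted p = 2.837e-07 and 8.337e-05). Tsc2 and Bap1 turned to the other side, by 0.036 and 0.041 (limma adjusted p = 0.001332 and 0.008297), and Tsc1 came to 0.027 with an adjusted p of 0.14 by limma. Corrected in this way, 29.3% of all gene loci were called lower and 34.7% higher than their chromosome, against 2 and 4 of the 7 genes. Rb1 remained above 98.6% of all gene loci and Arid2 above 94.5%, while the share of loci below Trp53 rose from 9.8% to 17.6% and that below Arid1a from 9.1% to 26.2%. The order was then Trp53, Arid1a, Tsc1, Tsc2, Bap1, Arid2 and Rb1, and 2 of the 4 ordered pairs kept their order at p under 0.05 under this correction, Trp53 below Tsc2 and Bap1 below Arid2. Trp53 lay below Arid1a by -0.029, the reverse of the deposited values (p = 0.024, exact sign-flip test, n = 14).

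**Figure D3:**
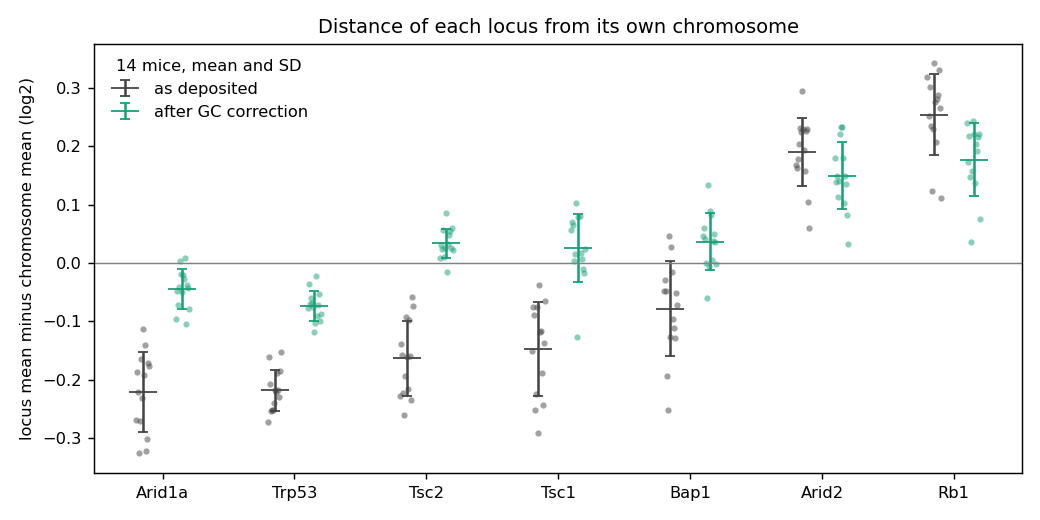
Points are 14 mice, placed by the distance of a locus from the mean of its own chromosome (y axis, log2), with mean and SD, as deposited in grey and after GC correction in green. Tsc2, Tsc1 and Bap1 have means below 0 as deposited and above 0 after the correction, whereas Arid2 and Rb1 stay above 0 and Arid1a and Trp53 below.

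In single tumours no deletion or gain particular to any of the 7 loci was called. A locus was called in a tumour when its excess, the distance from the chromosome less the median of that distance over tumours on the same array design, was at least 0.2 and at least 3 times its noise. This noise was the noise per probe of the array divided by the square root of the number of probes. A change shared by most tumours of a design would enter that median, and could not be called in them in this way. Of 147 values, 7 genes in 21 tumours, 0 were called lower and 0 higher, whereas 0.236% of all values at gene loci were called lower and 0.785% higher. The largest excess was 0.27 at Tsc1 in lesion 1 of mouse 608, followed by 0.23 at Tsc2 in the same tumour and 0.23 at Tsc1 in lesion 1 of mouse 1770, each below 3 times its noise. The lowest was -0.185 at Tsc1 in lesion 2 of mouse 2064. The smallest excess that could be called was 0.2 in the best arrays and up to 0.42 (Rb1) in the noisiest, so that smaller changes of the locus mean were not detectable. Few probes of a locus lay in the gene itself. On slides 2 and 3, 3 of 92 locus probes were named for Trp53 and 1 of 63 for Bap1. A deletion confined to such a gene would move the locus mean little and could have been missed.

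**Figure D4:**
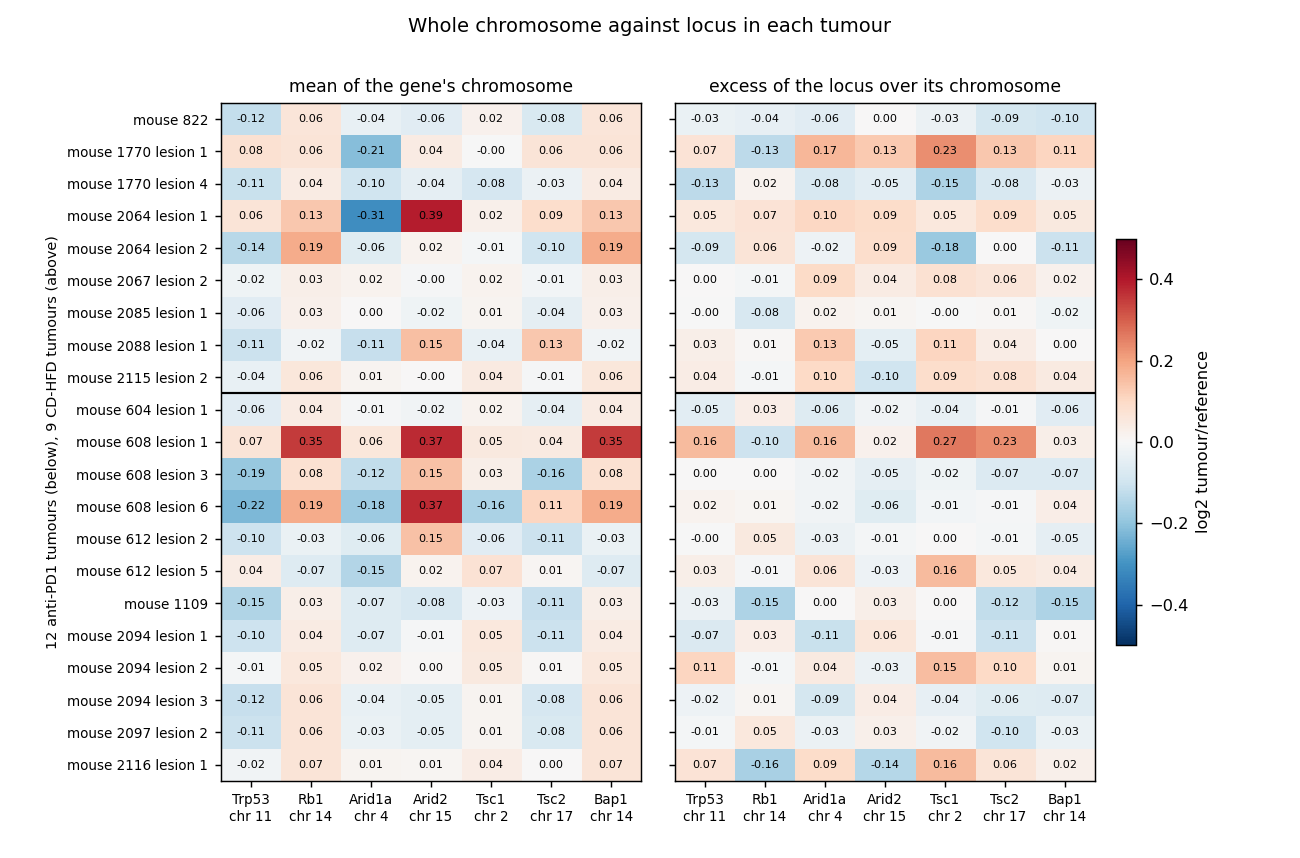
Colours and printed numbers give, for each tumour (rows) and gene (columns), the mean log2 ratio of the gene's chromosome (left) and the excess of the locus over it (right), with 9 CD-HFD tumours above the line and 12 anti-PD1 tumours below. The largest chromosome values are those of chromosome 15 in lesions 1 and 6 of mouse 608 and lesion 1 of mouse 2064, while no excess reaches 0.3.

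Segments were then found along each chromosome and read at the position of each gene, with a segment mean of at least 0.2 as gain and of at most -0.2 as loss. A segment held at least 10 probes, and on slides 2 and 3 none of the 7 genes had as many named probes. There were 43 losses and 7 gains among the 147 values, against 15.9% losses and 7.74% gains over all gene loci. Without lesion 1 of mouse 608 there were 43 losses and 4 gains. Losses fell on Arid1a in 14 tumours of 9 mice, on Tsc1 in 11 tumours of 9 mice, on Tsc2 in 11 tumours of 10 mice, on Trp53 in 5 tumours and on Bap1 in 2. At Tsc1 the 11 segments spanned 11.2 to 12.1 Mb with nearly the same ends in different mice of both groups, and at Tsc2 they spanned 8.1 to 13.4 Mb. At Arid1a 1 loss was the whole of chromosome 4 and the others spanned 18.5 to 39.1 Mb, and at Trp53 4 of the 5 losses spanned 2.1 to 4.7 Mb. After the GC correction 2 losses and 6 gains were called, against 3.17% losses and 4.11% gains over all gene loci. The part of GC content in these calls was not tested.

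The calls left after the correction were all of whole chromosomes. Arid1a was lost with the whole of chromosome 4 in lesion 1 of mouse 1770 (-0.22) and lesion 1 of mouse 2064 (-0.31), both CD-HFD tumours and, after lesion 1 of mouse 608, the dimmest arrays (82.1% and 85.8% of spots well above background). Arid2 was gained with the whole of chromosome 15 in all 3 lesions of mouse 608 (0.37 in lesion 1, 0.21 in lesion 3 and 0.41 in lesion 6), which had received anti-PD1, and in lesion 1 of the CD-HFD mouse 2064 (0.41). Rb1 and Bap1 were gained together with the whole of chromosome 14 in lesion 1 of mouse 608 (0.35). Without that tumour 3 gains remained, all of them at Arid2. Counted in mice, the gain at Arid2 was present in 1 of 7 anti-PD1 and 1 of 7 CD-HFD mice, the loss at Arid1a in 0 and 2, and no comparison of the groups was made from such numbers.

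Along chromosome 15 the ratio was above 0 throughout in the 4 tumours with a gain at Arid2. In bins of 5 Mb, lesion 1 of mouse 608 lay between 0.235 and 0.48, lesion 6 between 0.29 and 0.51, lesion 3 between 0.13 and 0.41, and lesion 1 of mouse 2064 between 0.345 and 0.525, with 21 of 21 bins above 0 in each. Lesion 2 of mouse 612 (median bin 0.17) and lesion 1 of mouse 2088 (median bin 0.205) also had 21 of 21 bins above 0 without reaching the threshold of 0.2 as a segment. The bin that holds Arid2 stood at 0.46, 0.129 and 0.43 in lesions 1, 3 and 6 of mouse 608 and at 0.38 in lesion 1 of mouse 2064, and in lesion 3 it was the lowest of the 21 bins.

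**Figure D5:**
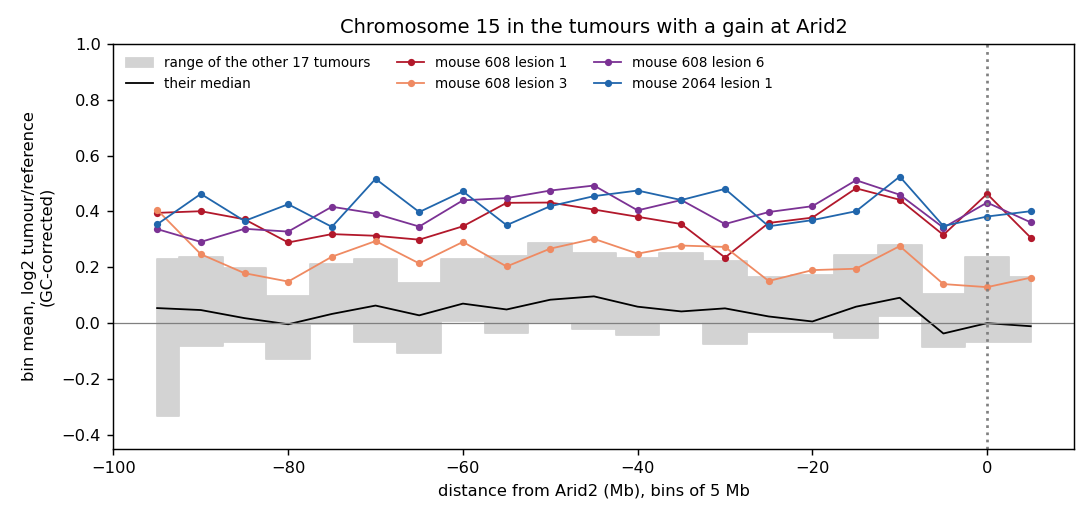
Lines give the mean GC-corrected log2 ratio in bins of 5 Mb along chromosome 15, by distance from Arid2 (dotted line), for the 4 tumours with a gain called at Arid2. Grey shading is the range and the black line the median of the other 17 tumours. The 4 lines run above 0 along the whole chromosome.

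Lesions of 1 mouse differed in some of these values, which are given as deposited and after GC correction. In mouse 2064 Arid2 stood at 0.69 in lesion 1 and 0.31 in lesion 2 (0.67 and 0.285 after GC correction), and Arid1a at -0.48 and -0.35 (-0.36 and -0.07). In mouse 1770 Trp53 stood at -0.074 in lesion 1 and -0.46 in lesion 4, but at -0.019 and -0.028 after GC correction, so that this difference was not present in the corrected values. Tsc1 stood at 0.12 and -0.35 in the same lesions (0.15 and -0.018 after GC correction). In mouse 608 Rb1 stood at 0.53, 0.35 and 0.48 in lesions 1, 3 and 6 (0.50, 0.20 and 0.37 after GC correction). Trp53 stood at 0.006, -0.41 and -0.43 in these 3 lesions, and at -0.012, -0.12 and -0.14 after GC correction. Lesion 3 lay on slide 3, of the other array design than lesions 1 and 6, with 24 probes at Rb1 against 39. The part of the design in these values was not tested. In each of these 3 mice lesion 1 was the dimmest array, with 65.0% (608), 82.1% (1770) and 85.8% (2064) of spots well above background, the lowest shares of the series, and the part of that in the differences between lesions was not tested. Each lesion was hybridized once, so these differences between lesions have no replicate. The within-mouse correlation of levels that limma estimated over loci was -0.057 as deposited and 0.053 after GC correction.

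In 2 tumours there was a short segment at Bap1 that was called a loss, 17 probes at chr14:31949982-32133128 of mm9, with a mean of -0.68 in lesion 3 of mouse 2094 (anti-PD1) and -0.69 in the tumour of mouse 822 (CD-HFD). The same probes had a mean below 0 in all 13 tumours on slides 2 and 3, from -0.78 to -0.23, in both groups. The 50 kb around them held 50.9% G and C, against 43.4% for chromosome 14 on that design, and after the GC correction their means were between -0.30 and -0.084. The segment was thus low in every tumour of that array design and not only in the pair in which it was called.

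Partners of the 7 genes in the same pathways were counted in the same way, by their distance from the chromosome and by the difference between the groups. No gene of these lists differed between anti-PD1 and CD-HFD tumours by limma, and none had an unadjusted p under 0.05. Of 14 other SWI/SNF genes 3 lay above and 9 below their chromosome at an adjusted p of 0.05 by limma, from Dpf2 (-0.24), a histone reader of BAF, to Smarca2 (0.14), an alternative ATPase. Of 8 measured genes around p53, with Bax not measured, 2 lay above and 4 below, from Bbc3 (-0.16), a p53 target that triggers apoptosis, to Atm (0.23), the kinase that activates p53 after DNA breaks. In the RB pathway 5 of 10 measured genes lay above and 4 below, Cdk4 not being measured, from E2f1 (-0.14) to Cdkn2c (0.25), an inhibitor of the cyclin D kinases. Around TSC and mTORC1 2 of 10 lay above and 6 below, from Stk11 (-0.50), the LKB1 kinase upstream of TSC2, to Rps6kb1 (0.23), the S6 kinase downstream of mTORC1. Of 7 BAP1 partners 0 lay above and 6 below, from Asxl1 (-0.18), the cofactor of BAP1, to Bard1 (0.052, not called). Of 11 other suppressors of liver cancer 6 lay above and 3 below, from Keap1 (-0.26), the inhibitor of NRF2, to Acvr2a (0.21), a receptor for activin. The median distance was -0.144 for the 7 genes and -0.028 for all gene loci, and the shares called in these lists are to be read against the 47.6% and 33.9% called over all loci. All distances in these lists are as deposited and not corrected for GC content.

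For each gene the locus on another chromosome whose level was most like it over the 14 mice is given as a description, since the loci share arrays, probes of like composition and the centring. Trp53 was most like Ryr1 on chromosome 7 (Pearson r = 0.96), Bap1 like Hrasls5 on chromosome 19 (0.949), Tsc1 like Crx on chromosome 7 (0.934) and Tsc2 like Eif4e2 on chromosome 1 (0.918). The values for Arid2 with AK016440 on chromosome 14 (0.859, but Spearman's rho 0.481, where the other 6 pairs had 0.815 or more), Rb1 with Tspyl1 on chromosome 10 (0.855) and Arid1a with Zbtb42 on chromosome 12 (0.851) were lower. Among the 7 genes themselves Arid1a and Tsc1 had the highest r of levels (0.816) and Arid1a and Arid2 the lowest (-0.391), while Tsc1 and Tsc2 had 0.371.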

How the data were processed

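Genomic DNA of 21 liver tumours (250 ng, Cy3) and a reference pool (Cy5) had been hybridized to 2-colour Agilent arrays, always in this dye orientation. The authors deposited the scanner output, with spot intensity values spatially detrended and dye-normalized by the scanner software, and its log10 ratio of red over green, which matched the processed signals in 99.42 to 100.0% of spots (tolerance 0.001); that Cy3 holds tumour DNA rests on the labels alone. They also deposited loess-normalized log2 ratios, used as an alternative. How these were made is not given in the sources used here.

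The log2 ratio of Cy3 over Cy5 was centred on each array's median. Control spots and 88 to 228 outlier spots per array of 59052 were left out, and saturated spots kept. Tests used limma 3.58.1 in R 4.3.3 (duplicateCorrelation by mouse, Benjamini-Hochberg over all loci) and exact permutations over mice in Python 3.11.15 (numpy 2.4.6, pandas 2.3.3, scipy 1.17.1, numba 0.67.0). Segments of at least 10 probes came from optimal partitioning (penalty: noise variance, times log probe number, times 3). For GC content and annotation, probe sequences were matched exactly to GRCm38 (99.9% of 96471 at 1 place); no coordinate was converted. The precision is limited by the number of arrays. Segment, focal and limma steps were tested on simulated data with independent noise. That noise held no GC trend and no likeness between lesions of 1 mouse.

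The genes named were the 7 genes, their 5 nearest named genes, the most alike locus, and from the pathway lists the lowest and highest gene. The genes and lists were chosen with earlier results of these data known. Alternatives were the loess ratios, normexp (offset 50), probes well above background or common to both designs, 250 and 1000 kb, named probes alone, medians, GC correction, independent tumours, slides, other thresholds and penalty, each mouse left out, and, chosen after seeing the data, lesion 1 of mouse 608 left out.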

Additional observations from a re-analysis of the deposited data

Results flagged for a closer look

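Among 28 sets of 7 mice, the level and the distance of 7 loci in each group, 3 held a mouse whose gap to its nearest neighbour was large against the range of the set by Dixon's criterion, which chance exceeds in about 1 in 20 sets. The level of Rb1 was 0.503 in the CD-HFD mouse 2064, while the other 6 CD-HFD mice lay between 0.234 and 0.321. The level of Arid1a was -0.162 in the anti-PD1 mouse 2116, above the other 6 at -0.35 to -0.269. The distance of Arid2 from chromosome 15 was 0.0614 in the same mouse 2116, below the other 6 at 0.163 to 0.232. What these mice have in particular was not tested.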

How the results depend on the processing

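With noise of 0.41 to 0.68 per probe, an excess under 0.2 to 0.42 at a locus could not be called, and ratios have no dye swap. No paired analysis was possible because each mouse belongs to 1 group. limma called 0 loci between the groups under every setting run. Other settings moved counts as follows. Losses by segment were 2 with GC correction and 18 at a threshold of 0.3, against 43. Gains were 2 with normexp, 21 at a threshold of 0.1, 4 at 0.3 and 4 without lesion 1 of mouse 608, a setting chosen after seeing the data, against 7. With 1000 kb flanks 1 focal gain was called (Arid1a, lesion 1 of mouse 608, 0.227), against 0. Ordered neighbour pairs were 2 with GC correction, against 4. With single mice left out, 0 to 1 of the 7 genes differed in distance at p under 0.05, the 1 being Arid1a without mouse 822 (-0.0815, exact p = 0.0169, n = 6 and 7). By limma the difference in distance at Arid1a had an unadjusted p under 0.05 without mouse 608 (-0.0802), without its lesion 1 (-0.0771), with 250 kb (-0.109) and with GC correction (-0.0375), against -0.0566, with adjusted p of 0.8525 or more.

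Differences between the groups in the means over mice are given next; limma weights lesions otherwise, and its main difference was already above 0 for the level of Rb1 (0.0014) and the distance of Tsc1 (0.0203). Differences in level changed sign as follows. Trp53 came to 0.0054 with 250 kb, 0.0175 with medians, 0.0055 with GC correction and 0.0122 with its own probes. Rb1 came to 0.0237 with loess, 0.0122 with 1000 kb, 0.0606 with common probes and 0.115 within slide 1. Arid1a came to 0.0014 with loess and 0.0064 with medians. Arid2 came to 0.0030 with loess, 0.00015 with 1000 kb, 0.0029 with common probes and 0.133 within slide 1. Tsc1 came to -0.0064 with 250 kb, -0.0336 within slide 1 and -0.0169 without lesion 1 of mouse 608. Tsc2 came to 0.0204 with its own probes and Bap1 to 0.0184 within slide 1. With single mice left out the ranges were -0.0331 to 0.0057 (Trp53), -0.0350 to 0.0217 (Rb1), -0.0696 to 0.0154 (Arid2), -0.0187 to 0.0250 (Tsc1), -0.0625 to -0.0094 (Arid1a), -0.107 to -0.0500 (Tsc2) and -0.0702 to -0.0043 (Bap1). From the probes named for Bap1 alone its difference was -0.242 (exact p = 0.125, n = 7 and 7). That value rests on 2 probes on the design of slide 1 and on 1 probe on the other design, so it partly compares different probes. The Bap1 probe present on both designs had a difference of -0.159 between the group means. The part of the design in the value of -0.242 was not tested. Named probes also differed in number between the designs at the other genes.

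Differences in distance changed sign at Trp53 with loess (-0.0604), 1000 kb (-0.0018), common probes (-0.0507) and within slide 2 (-0.0128). At Rb1 they did so with loess (0.0258), 1000 kb (0.0062), common probes (0.0536) and within slide 1 (0.0598), and at Arid2 with loess (0.0178), 1000 kb (0.0069) and common probes (0.0059). At Tsc1 they did so with normexp (0.0081), probes well above background (0.0042), 1000 kb (0.0013), medians (0.0169), common probes (0.0452), GC correction (0.0127), its own probes (0.122) and independent tumours (0.0174), and at Tsc2 with loess (0.0152), common probes (0.0156), its own probes (0.0709) and within slide 1 (0.0019). With single mice left out the ranges were -0.00047 to 0.0193 (Trp53), -0.0296 to 0.0066 (Rb1) and -0.0249 to 0.0173 (Tsc1).

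Distances from the chromosome changed sign at Tsc1 with GC correction (0.0266) and its own probes (0.131), at Tsc2 with GC correction (0.0364), and at Bap1 with loess (0.0853), common probes (0.0490) and GC correction (0.0412). Neighbours in the order traded places for Arid1a and Trp53 with normexp (-0.0023), 1000 kb (-0.0166), medians (-0.0043), common probes (-0.0276) and GC correction (-0.0290), and over -0.0054 to 0.0108 with single mice left out. So did Trp53 and Tsc2 with 1000 kb (-0.0170), Tsc2 and Tsc1 with 250 kb (-0.0437) and GC correction (-0.0074), and Arid2 and Rb1 with medians (-0.0064). Neighbour pairs lost their p under 0.05 without trading places for Trp53 and Tsc2 with 250 kb (0.0461) and medians (0.0222), Tsc1 and Bap1 with GC correction (0.0108), Bap1 and Arid2 with loess (0.0223), and Arid2 and Rb1 with probes well above background (0.0322) and GC correction (0.0281). The pair of Tsc2 and Tsc1 gained a p under 0.05 by the sign-flip test, in the order of the deposited values, with 2 settings. The causes were not tested.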
